A study of Mus musculus with 4 samples.

Results

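The 80 genes described here encode nuclear-made subunits of the mitochondrial respiratory chain and the ATP synthase, among 18820 genes measured in epididymal adipose tissue of mice. The rule picks genes by symbol and not by a measured value, although it was set with earlier results of these data known. It takes the Nduf genes of complex I (35), the Sdh genes of complex II (4), the Uqcr genes of complex III (7), the Cox4 to Cox8 genes of complex IV (17) and the Atp5 genes of complex V (17). Of the 80, 77 passed a filter on low levels, and the 3 that did not (Cox6b2, Cox7b2 and Cox8c) are isoforms known from testis. A further 9 probe sets carried symbols that fit the same rule together with other symbols. They held 4 genes found nowhere else on the array and are not named here.

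Oxidative phosphorylation passes electrons from NADH and succinate through complexes I and II to ubiquinone, then through complex III and cytochrome c to complex IV, where oxygen is reduced. Complexes I, III and IV pump protons across the inner mitochondrial membrane, and complex V, the ATP synthase, uses the gradient to make ATP. Most subunits are encoded in the nucleus and imported, while a few core subunits of complexes I, III, IV and V are encoded by mitochondrial DNA. White adipocytes use this system for lipogenesis, fatty acid re-esterification and hormone secretion.

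The study asked what CD1d-restricted natural killer T cells, which recognise lipids shown by CD1d, do in adipose tissue of lean mice. There were 4 arrays in 3 groups: 2 of CD1d-null mice on a low-fat diet (KO array 1 and KO array 2), 1 of wild type animals fed a high-fat diet (WT_HF) and 1 of wild type animals fed the low-fat diet (WT_LF). The diets held 10 kcal% (low-fat) or 45 kcal% (high-fat) of fat and were fed for 18 to 19 weeks, starting at 10 to 11 weeks of age, and every array was hybridised with pooled RNA of 4 to 6 mice. All animals were C57BL/6, with the null allele, present in all cells of the KO animals, backcrossed to C57BL/6J for 10 to 12 generations. Nothing in the labels tells whether both KO arrays came from separate pools, so the p-values may not reflect the spread between pools of animals. The 2 arrays were not alike: of the genes above the filter, 14.8% were at least 1.5-fold higher on KO array 2 than on KO array 1, and 4.45% were lower. Neither wild type group has a replicate.

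Levels are the log2 of deposited intensities, and a difference is one of log2 levels where it is not called a fold. The median intensity over all probe sets was 51.1 to 52.2 on the 4 arrays. Cd1d1, the deleted gene, had levels of 3.74 and 3.98 on the KO arrays, against 11.80 on both wild type arrays (limma adjusted p = 0.00646, and 0.0931 with no filter on low levels). The adipocyte markers were high on every array: the 14 measured genes, led by Retn, Lpl and Cidec, had a summed intensity between 94969 and 96262. Of the 14, 1 was at least 1.5-fold higher on the WT_HF than on the WT_LF array (7.72% of all genes). On KO array 2 against KO array 1, 1 was higher by as much (14.8% of all genes). The sums of some other cell types were less even. The 21 macrophage markers, all above the filter, summed to 13006 on KO array 1, 29672 on KO array 2, 34377 on the WT_HF array and 16334 on the WT_LF array. Markers of the epididymis, an organ that touches this fat pad, passed the filter for 13 of 21 genes, and those 13 summed to 1129 on KO array 1, 2860 on KO array 2, 248 on the WT_HF array and 18569 on the WT_LF array. KO array 1 also had the highest sums of smooth muscle markers (10936, against 6327 to 6613 on the other arrays) and of spermatogenic markers (2521, against 810 to 1384). In such bulk tissue, fewer cells of a type and less RNA per cell cannot be told apart.

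The subunit genes were on average lower on the WT_HF array than on the WT_LF array. Of the 77 genes, 70 were lower on the WT_HF array, where 41.8% of the 11292 genes tested were. Their median difference was −0.34, against 0.05 for all genes tested. A difference of 1.5-fold or more, with the WT_HF array lower, was found for 17 subunit genes, where 3.82% of all genes reached it, and in the other direction for 0 subunit genes, where 7.72% of all genes did. Neither diet group has a replicate, so the only test is a limma contrast, added after the data were seen, that takes its spread from the KO arrays. It called 0 of the 77 subunit genes at an adjusted p of 0.05, where 0.0177% of all genes passed, and 0 at an unadjusted p of 0.05, where 1.43% did. The lowest unadjusted p belonged to Cox8b, with a difference of −0.77 (SE 0.37, limma adjusted p = 0.9998). Because the subunit genes lie high on the level scale, the same counts were made, after the data were seen, among the 2270 genes at or above the lower quartile of the subunit levels (9.25). There, 54 of 58 subunit genes were lower on the WT_HF array, against 35.5% of all genes at those levels, 10 were lower by 1.5-fold or more, against 3.3%, and 0 were higher by as much, against 7.67%.

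The 2 KO arrays differed from each other by about as much. KO array 2 was lower than KO array 1 for 64 of the 77 genes, where 35.7% of all genes were, with a median difference of −0.30 against 0.14 for all genes. Again 17 subunit genes were lower by 1.5-fold or more, where 4.45% of all genes were, and 0 were higher, where 14.8% of all genes were. Among genes at or above a level of 9.25, 8 of 58 subunit genes were lower by 1.5-fold or more, against 3.39%. After quantile normalization the shares over all genes were 6.1% lower and 11.6% higher. The 2 comparisons share no array, and 13 genes passed 1.5-fold in both, which is 76.5% of each set of 17. Over all genes, 1.93% passed in both, which is 218 genes out of 431 and 503. The levels show how: within 0.2 on the log2 scale, KO array 2 matched the WT_HF array for 70 of 77 genes (72.1% of all genes), and KO array 1 matched the WT_LF array for 59 of 77 (47.3% of all genes). In both comparisons the array with the lower subunit levels had the higher macrophage markers. Of 21, 16 were higher by 1.5-fold or more on the WT_HF array than on the WT_LF array (7.72% of all genes). On KO array 2 against KO array 1, 18 of 21 were (14.8% of all genes). The 13 epididymis markers were all at least 1.5-fold lower on WT_HF than on WT_LF, the same 2 arrays that give the diet difference. Their median level was 10.21 on WT_LF and 4.10 on WT_HF, so the filter on mean level favoured markers high on WT_LF and partly set that count. Between the KO arrays, 9 of the 13 were at least 1.5-fold higher on KO array 2, where 14.8% of all genes were, and 2 were lower, where 4.45% were. The part of either marker list in the subunit levels was not tested.

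**Figure D1:**
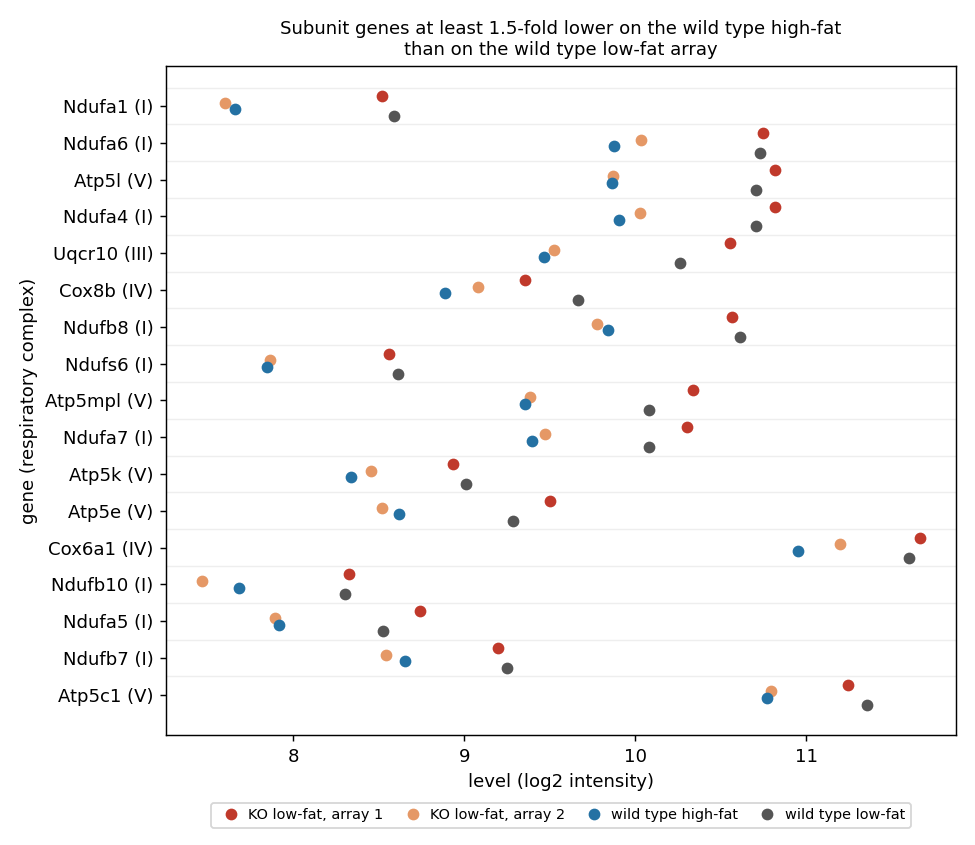
Log2 levels of the 17 subunit genes that were at least 1.5-fold lower on the WT_HF array than on the WT_LF array, 1 point per array and gene, with the respiratory complex in brackets. For most genes the points of KO array 2 and the WT_HF array lie close together at the left, and those of KO array 1 and the WT_LF array close together at the right.

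Complex I takes electrons from NADH through a matrix arm and pumps protons in a membrane arm; around its core lie many accessory subunits that serve assembly and stability. Its 35 genes had a median of −0.34 on the WT_HF against the WT_LF array. Of them, 32 were lower on the WT_HF array, where 41.8% of all genes were. By 1.5-fold or more 9 were lower, where 3.82% of all genes were, and all 9 carry names of accessory subunits. Ndufa1, a small membrane protein needed for assembly of the complex and the gene with the lowest value of all 77, was at 8.52 on KO array 1, 7.60 on KO array 2, 7.66 on the WT_HF array and 8.59 on the WT_LF array. That is 1.90-fold lower on the WT_HF array than on the WT_LF array, and 1.89-fold lower on KO array 2 than on KO array 1, so that the KO arrays lay on either side of the gap and matched 1 wild type array each.

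Ndufa6, which holds the mitochondrial acyl carrier protein on the complex, was at 10.75 on KO array 1, 10.03 on KO array 2, 9.88 on the WT_HF array and 10.73 on the WT_LF array. Ndufb8, a membrane-arm subunit whose protein is widely used as a gauge of assembled complex I, was at 10.56 on KO array 1, 9.78 on KO array 2, 9.84 on the WT_HF array and 10.61 on the WT_LF array. Ndufa4, named for complex I although its protein has since been placed in complex IV, was at 10.81 on KO array 1, 10.03 on KO array 2, 9.90 on the WT_HF array and 10.70 on the WT_LF array. For all 3, KO array 2 and the WT_HF array lay below KO array 1 and the WT_LF array, as for Ndufa1. Ndufs6, Ndufa7, Ndufb10, Ndufa5 and Ndufb7, several of them chosen for naming after their values were seen, were 1.51- to 1.70-fold lower on the WT_HF than on the WT_LF array and 1.58- to 1.82-fold lower on KO array 2 than on KO array 1.

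The catalytic core of complex I was described apart from the accessory subunits. Its 6 nuclear genes measured here (Ndufs1, Ndufs3, Ndufs7, Ndufs8, Ndufv1 and Ndufv2) had a median of −0.26 on the WT_HF against the WT_LF array and −0.00 between KO array 2 and KO array 1, with 0 past 1.5-fold in either. The 29 other Nduf genes had −0.36 and −0.48 in the same comparisons, with 9 and 12 past 1.5-fold, where 3.82% and 4.45% of all genes were. This grouping was made after the data were seen and the difference between the groups was not tested. Ndufs7, which carries the last iron-sulfur cluster before ubiquinone, was at 11.28 on KO array 1, 11.55 on KO array 2, 11.63 on the WT_HF array and 11.56 on the WT_LF array, so it was not lower on the WT_HF array. Ndufv1, which binds NADH and flavin, was at 10.33 on KO array 1, 10.19 on KO array 2, 10.13 on the WT_HF array and 10.52 on the WT_LF array, which was the highest of the 4. Ndufs4, an accessory subunit that steadies the NADH-binding tip, also ran the other way, at 10.56 on KO array 1, 10.79 on KO array 2, 10.83 on the WT_HF array and 10.76 on the WT_LF array. Ndufb4 lay between 12.26 and 12.33 and Ndufa8 between 9.99 and 10.06 on all 4 arrays.

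Complex II, or succinate dehydrogenase, belongs to both the chain and the citric acid cycle, and all 4 of its subunits are nuclear. Every one of its genes was highest on the WT_LF array. Sdha, the flavoprotein that oxidises succinate, was at 11.05 and 11.06 on the KO arrays, 11.12 on the WT_HF array and 11.28 on the WT_LF array. Sdhb, the iron-sulfur subunit, was at 10.91 on KO array 1, 10.40 on KO array 2, 10.45 on the WT_HF array and 10.99 on the WT_LF array. Only Sdhb of the 4 had the paired pattern of Ndufa1. The membrane anchors had smaller gaps: Sdhc was at 10.71 and 10.53 on the KO arrays, 10.69 on the WT_HF array and 10.82 on the WT_LF array, and Sdhd at 9.66 and 9.55 on the KO arrays, 9.63 on the WT_HF array and 9.93 on the WT_LF array. The median of the 4 differences was −0.23 for the WT_HF against the WT_LF array. None reached 1.5-fold, where 3.82% of all genes were lower by as much.

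Complex III passes electrons from ubiquinol to cytochrome c. All 7 of its genes were lower on the WT_HF than on the WT_LF array (median −0.41), where 41.8% of all genes were. By 1.5-fold or more 1 was lower, where 3.82% of all genes were. Uqcr10, a small subunit of the membrane part, was at 10.55 on KO array 1, 9.53 on KO array 2, 9.47 on the WT_HF array and 10.26 on the WT_LF array. It was 1.73-fold lower on the WT_HF array, and 2.04-fold lower on KO array 2 than on KO array 1, the one subunit gene past 2-fold in that comparison. Uqcrfs1, the Rieske iron-sulfur protein, was at 8.06 and 7.91 on the KO arrays, 7.68 on the WT_HF array and 8.26 on the WT_LF array, with no gap between the KO arrays of the kind seen for Uqcr10. Uqcrb, which lies beside the ubiquinone site, was at 11.55 on KO array 1, 11.67 on KO array 2, 11.38 on the WT_HF array and 11.77 on the WT_LF array. Uqcrc1, a core protein on the matrix side, lay at 10.47 to 10.49 on both KO arrays and the WT_HF array, against 10.64 on the WT_LF array.

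Complex IV reduces oxygen with mitochondrially encoded subunits, while its nuclear subunits include pairs of isoforms that differ between tissues. Of 14 genes above the filter, 12 were lower on the WT_HF than on the WT_LF array (median −0.34), where 41.8% of all genes were. By 1.5-fold or more 2 were lower, where 3.82% of all genes were. Cox8b, the isoform of heart, skeletal muscle and brown fat, was at 9.35 on KO array 1, 9.08 on KO array 2, 8.89 on the WT_HF array and 9.66 on the WT_LF array. Both KO arrays lay below the WT_LF array and above the WT_HF array. Its ubiquitous partner Cox8a was nearly level, at 12.75 and 12.50 on the KO arrays, 12.58 on the WT_HF array and 12.72 on the WT_LF array. Cox6a1, the ubiquitous isoform, was at 11.66 and 11.20 on the KO arrays, 10.95 on the WT_HF array and 11.60 on the WT_LF array. Cox6a2, its heart and muscle partner, was lowest on the WT_LF array, at 6.17 and 6.37 on the KO arrays, 6.33 on the WT_HF array and 5.85 on the WT_LF array. Those values stand close to the filter at 5.45, where array signal is weak.

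Cox4i1, the general form of the subunit that binds ATP on complex IV, was at 11.48 on KO array 1, 10.99 on KO array 2, 10.88 on the WT_HF array and 11.46 on the WT_LF array. Cox4i2, the isoform known from lung and from low oxygen, was at 6.16 and 5.77 on the KO arrays, 6.08 on the WT_HF array and 5.90 on the WT_LF array. Cox7a1, known from muscle and brown fat, was at 7.83 and 7.53 on the KO arrays, 7.58 on the WT_HF array and 7.70 on the WT_LF array, a span of less than 1.5-fold. Cox7a2, its widely expressed relative, was at 10.80 and 10.29 on the KO arrays, 10.24 on the WT_HF array and 10.71 on the WT_LF array. Cox6b1, Cox6c, Cox7b and Cox8a were 1.5-fold apart in no comparison of 2 arrays. Ucp1, the uncoupling protein of brown fat, was below the filter, at 3.73 to 4.10.

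Complex V consists of a catalytic head and stalk in the matrix, a ring of c subunits in the membrane, and small subunits that join the parts and link enzymes into dimers. Of its 17 genes, 15 were lower on the WT_HF than on the WT_LF array (median −0.30), where 41.8% of all genes were. By 1.5-fold or more 5 were lower, where 3.82% of all genes were. The 5 head and stalk genes had a median of −0.00, with both directions among them. Atp5b, the catalytic beta subunit, was at 12.31 and 12.64 on the KO arrays, 12.68 on the WT_HF array and 12.57 on the WT_LF array, and Atp5a1, the alpha subunit, at 11.18 and 11.33 on the KO arrays, 11.34 on the WT_HF array and 11.35 on the WT_LF array. Atp5e, the epsilon subunit of the central stalk, was at 9.50 on KO array 1, 8.52 on KO array 2, 8.62 on the WT_HF array and 9.29 on the WT_LF array. Atp5c1, the gamma subunit of that stalk, was at 11.24 and 10.79 on the KO arrays, 10.77 on the WT_HF array and 11.36 on the WT_LF array. Atp5e was 1.59-fold lower on the WT_HF than on the WT_LF array and Atp5c1 lower by 1.5-fold, while Atp5b of the head was higher by 0.10.

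Among the small membrane subunits, Atp5l (subunit g) was at 10.82 on KO array 1, 9.87 on KO array 2, 9.87 on the WT_HF array and 10.71 on the WT_LF array. All 6 of its probe sets gave similar differences, −0.88 to −0.77 for the WT_HF against the WT_LF array and −0.98 to −0.88 for KO array 2 against KO array 1. Whether probe sets of such short, highly expressed genes also read near-identical copies elsewhere in the genome was not tested. Atp5k (subunit e), which works beside subunit g in joining dimers, was at 8.93 and 8.45 on the KO arrays, 8.34 on the WT_HF array and 9.01 on the WT_LF array. Atp5mpl was at 10.34 on KO array 1, 9.38 on KO array 2, 9.36 on the WT_HF array and 10.08 on the WT_LF array, the same order as Atp5l. The 3 genes for the c subunit make the same mature protein from different precursors. They did not share a pattern: Atp5g2 was at 11.84 and 11.30 on the KO arrays, 11.35 on the WT_HF array and 11.83 on the WT_LF array, while Atp5g3 was at 11.29 and 11.46 on the KO arrays, 11.31 on the WT_HF array and 11.47 on the WT_LF array. Atp5g1 was at 11.11 on KO array 1, the highest of the 4, 10.63 on KO array 2, 10.66 on the WT_HF array and 10.84 on the WT_LF array.

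**Figure D2:**
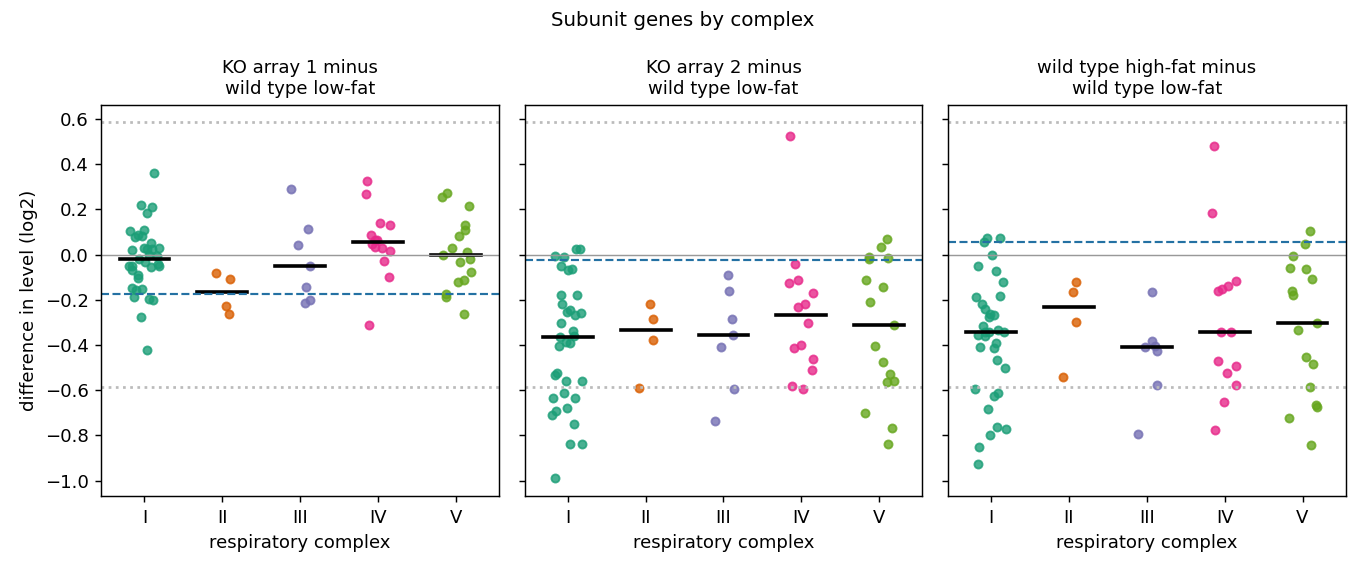
Difference in log2 level from the WT_LF array for each subunit gene above the filter (points), by respiratory complex, on KO array 1, KO array 2 and the WT_HF array. Black bars are medians of a complex, the blue dashed line is the median of all 11292 genes tested (−0.17, −0.02 and 0.05 in the panels), and dotted lines mark 1.5-fold. Points centre near 0 in the panel of KO array 1 and below 0 in the other panels.

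The loss of CD1d was tested with limma on the 2 KO arrays against the WT_LF array, across all 11292 genes with Benjamini-Hochberg adjustment. Of the 77 subunit genes, 0 passed an adjusted p of 0.05, where 0.0443% of all genes passed, and 0 passed an unadjusted p of 0.05, where 0.815% of all genes did. The 5 genes that passed after adjustment included Cd1d1 and 4 of the 13 epididymis markers. All 13 markers were lower on both KO arrays than on the WT_LF array, where 40.5% of all genes were. The filter on mean level favoured markers high on WT_LF here too. The part of these markers in the KO differences was not tested. By size, 0 subunit genes were 1.5-fold lower on both KO arrays, where 0.77% of all genes were, and 0 were higher, where 0.584% were. The lowest unadjusted p belonged to Cox8b, which averaged 9.22 ± 0.19 on the KO arrays (SD, n = 2), against 9.66 on the WT_LF array. Its difference was −0.45 (SE 0.32, limma adjusted p = 1). Cox6a2 averaged 6.27 ± 0.14 on the KO arrays (SD, n = 2), against 5.85 on the WT_LF array, a difference of 0.43 (SE 0.31, limma adjusted p = 1). It was the one gene above the filter that was higher on both KO arrays, where 9.74% of all genes were. The median SE of the 77 differences was 0.33, and a call after adjustment needs a difference of several SE. Differences well above 0.33 could thus also go undetected in this design.

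The count of genes lower on both KO arrays was 36 of 77, where 40.5% of all genes were. Each KO array differed from the WT_LF array in its own way: KO array 1 was lower for 40 of 77 subunit genes (77.6% of all genes) with a median of −0.00 (all genes −0.17), and KO array 2 for 72 of 77 (53.2% of all genes) with a median of −0.36 (all genes −0.02). KO array 1 was 1.5-fold lower for 0 subunit genes (5.02% of all genes) and higher for 0 (1.93%), and KO array 2 was lower for 17 (4.6%) and higher for 0 (5.54%). After quantile normalization the median of KO array 1 was 0.03, with the sign turned. Among the genes lowest on both KO arrays, Ndufs1, the largest iron-sulfur subunit of complex I, averaged 8.87 ± 0.12 on the KO arrays (SD, n = 2), against 9.21 on the WT_LF array. Sdhd averaged 9.60 ± 0.08 on the KO arrays (SD, n = 2), against 9.93 on the WT_LF array. Neither difference passed the test (limma adjusted p = 1 for both), and the WT_HF array also lay below the WT_LF array for both genes. Against the WT_HF array, KO array 2 was lower for 38 of 77 genes (72.0% of all genes), and 0 genes were 1.5-fold apart in either direction (1.31% of all genes lower and 1.57% higher).

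Plotted against each other, the diet difference and the difference between the KO arrays ran along 1 line over the subunit genes. Pearson's r was 0.79 and Spearman's rho 0.80 over 77 genes, which share their arrays and are not independent. The relation is given as a description, and other genes showed it too: r was 0.89 and rho 0.88 over the 2270 genes at or above a level of 9.25, and r was 0.52 and rho 0.70 over all 11292. Within complexes r was 0.83 in complex I (35 genes), 0.73 in complex III (7), 0.67 in complex IV (14) and 0.91 in complex V (17). The signs matched at the low end, with 63 of 77 genes lower in both comparisons, where 27.3% of all genes were. Cox8b lay off the line, 1.71-fold lower on the WT_HF array and 1.21-fold lower on KO array 2 than on KO array 1. Ndufb2, Ndufa3, Ndufs5 and Cox7a2l passed 1.5-fold between the KO arrays and not with the diet, and Cox8b, Cox6a1, Atp5k and Atp5c1 did the reverse; these names come from the counts. The diet difference had a weak relation by rank to the mean level (r = 0.15, rho = 0.32), with genes of lower level tending to the lower differences. It had little relation to the span of the gene on the genome (r = 0.14, rho = 0.17).

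**Figure D3:**
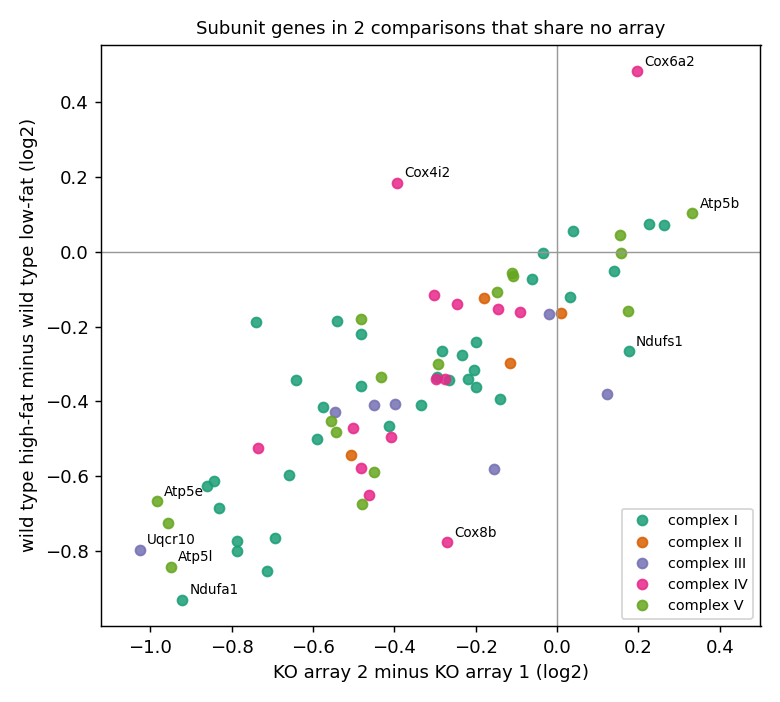
Each point is 1 of the 77 subunit genes, coloured by complex, with the log2 difference between KO array 2 and KO array 1 on the x axis and between the WT_HF and the WT_LF array on the y axis. The points run from Ndufa1, Uqcr10, Atp5l and Atp5e at the lower left to Atp5b at the upper right. Cox8b lies below the run of points and Cox4i2, whose level is close to the filter, above it.

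Upstream sequences were read because the subunit genes differed together between arrays and because many of them are known targets of NRF1, a factor that turns on nuclear genes of mitochondria. RefSeq (GRCm38.p6) windows of 300 bases, 250 before to 50 after the start, were given for 64 of the 77 genes (69 windows) and searched on both strands. A core of the NRF1 motif, in capitals in the sequences printed here, was present in 18 of 69 subunit windows (26.1%), against 4.6% of all 32851 windows. Below are the 150 bases before the start, 5′ to 3′ on the gene's strand with the matched letters in capitals, for 6 of the 11 genes that hold them there. The first 4 had the lowest diet differences of those 11 and the last 2 the highest. All lie on the minus strand: Ndufs6 at chr13:73328483-73328632, Atp5k at chr5:108434400-108434549, Cox6a1 at chr5:115348959-115349108, Atp5g2 at chr15:102671048-102671197, Ndufb4 at chr16:37654369-37654518 and Ndufa8 at chr2:36049339-36049488.
Ndufs6: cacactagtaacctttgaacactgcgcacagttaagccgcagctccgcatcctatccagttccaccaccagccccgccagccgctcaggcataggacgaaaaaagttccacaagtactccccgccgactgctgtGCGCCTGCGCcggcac
Atp5k: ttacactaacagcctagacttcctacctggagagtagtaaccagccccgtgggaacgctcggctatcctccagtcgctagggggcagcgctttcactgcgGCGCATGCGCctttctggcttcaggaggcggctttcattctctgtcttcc
Cox6a1: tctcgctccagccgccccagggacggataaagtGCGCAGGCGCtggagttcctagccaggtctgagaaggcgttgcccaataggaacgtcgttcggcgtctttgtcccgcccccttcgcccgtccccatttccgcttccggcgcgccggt
Atp5g2: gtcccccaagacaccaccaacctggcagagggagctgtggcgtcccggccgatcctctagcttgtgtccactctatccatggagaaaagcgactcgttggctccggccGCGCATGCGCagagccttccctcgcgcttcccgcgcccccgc
Ndufb4: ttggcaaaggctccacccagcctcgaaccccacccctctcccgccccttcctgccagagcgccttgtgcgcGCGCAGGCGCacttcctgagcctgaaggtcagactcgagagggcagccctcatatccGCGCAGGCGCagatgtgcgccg
Ndufa8: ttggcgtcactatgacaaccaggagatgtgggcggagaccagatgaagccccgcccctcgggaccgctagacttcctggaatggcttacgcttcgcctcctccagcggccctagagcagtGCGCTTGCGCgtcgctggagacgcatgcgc

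The NRF1 core stood in windows of genes at both ends of the diet difference. Ndufs6 was 1.70-fold lower on the WT_HF array, with its match starting 16 bases before the start, while Ndufb4 has 2 matches and differed by −0.07 and Ndufa8, with 1 match, by −0.00. Of the 17 genes past 1.5-fold, 16 had a window, and 7 of their 19 windows (36.8%) held the NRF1 core, against 11 of 50 (22.0%) for the other subunit genes. The same split was 5 of 19 (26.3%) against 3 of 50 (6.0%) for TATAAA, 5 (26.3%) against 12 (24.0%) for the ETS core, 1 (5.26%) against 6 (12.0%) for the YY1 core and 0 against 2 (4.0%) for the site of estrogen-related receptors. These shares were not tested. CCGGAAG, a core of the ETS motif bound by GABP, was in 17 of 69 subunit windows (24.6%), against 8.86% of all windows. AAGATGGCG, a core of the YY1 motif, was in 7 (10.1%), against 1.4%, and TCAAGGTCA, the site of estrogen-related receptors, in 2 (2.9%), against 0.423%. TATAAA was in 8 (11.6%), against 13.6%. These motifs do not contain one another. A match is a description of letters and not a site shown to be bound.

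Other mitochondrial genes did not all follow the subunits. Cytochrome c (Cycs) was at 12.50 and 12.62 on the KO arrays, 12.53 on the WT_HF array and 12.44 on the WT_LF array, and Cyc1, the heme subunit of complex III whose symbol is outside the rule, at 10.48 and 10.42 on the KO arrays, 10.47 on the WT_HF array and 10.63 on the WT_LF array. The 43 assembly factors tested had a median diet difference of −0.09, with 0 past 1.5-fold in either direction. Over all genes, 3.82% were lower and 7.72% higher on the WT_HF array by as much. The 17 citric acid cycle genes had −0.06 and likewise 0. The 15 genes of fatty acid oxidation had 0.10, and 1 of them passed, higher on the WT_HF array, a share near the 7.72% of all genes. That gene, Cpt1a, which lets fatty acids enter mitochondria, was at 9.65 and 10.57 on the KO arrays, 10.60 on the WT_HF array and 9.89 on the WT_LF array, with the arrays paired as for Ndufa1 but in the opposite direction. Of 10 carriers and porins, 1 passed, also higher on the WT_HF array and again a share near the 7.72% of all genes. It was Slc25a10, the dicarboxylate carrier, at 9.98 and 10.96 on the KO arrays, 11.06 on the WT_HF array and 10.14 on the WT_LF array.

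Most genes of both ribosome groups had lower values on the WT_HF than on the WT_LF array. Of 74 mitochondrial ribosomal protein genes, 62 did (median −0.24), where 41.8% of all genes did, and 2 passed 1.5-fold, Mrpl22 and Mrps16, which is no larger a share than the 3.82% of all genes. Mrps16 was at 8.29 on KO array 1, 7.21 on KO array 2, 7.35 on the WT_HF array and 7.98 on the WT_LF array. Of 70 cytosolic ribosomal protein genes, picked by their symbols once the data had been seen, 66 were lower on the WT_HF array (median −0.30). By 1.5-fold or more 6 were lower, where 3.82% of all genes were. Between KO array 2 and KO array 1 the cytosolic group had a median of −0.32 and the subunit genes −0.30. On KO array 2, 15 of the 70 cytosolic genes were lower by 1.5-fold or more, beside 17 of 77 subunit genes. Of the 74 mitochondrial ribosomal genes 8 were, and 4.45% of all genes. Genes that regulate mitochondrial content had a median diet difference of −0.01 over 14, from −0.38 for Ppargc1a to 0.46 for Hcfc1. Ppargc1a, a coactivator of mitochondrial genes, was at 6.88 and 6.87 on the KO arrays, 7.05 on the WT_HF array and 7.43 on the WT_LF array, while Nrf1 lay between 6.32 and 6.55, Esrra between 6.92 and 6.96 and Tfam between 6.27 and 6.77. The 14 adipocyte markers had a median of −0.06, with Adipoq at 13.19 and 13.03 on the KO arrays, 13.09 on the WT_HF array and 13.18 on the WT_LF array. The 77 subunit genes together had a summed intensity of 146333 on KO array 1, 125461 on KO array 2, 123910 on the WT_HF array and 148734 on the WT_LF array. No mitochondrially encoded gene was matched to a probe set with 1 symbol, so the mitochondrial core subunits were not analysed here.

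**Figure D4:**
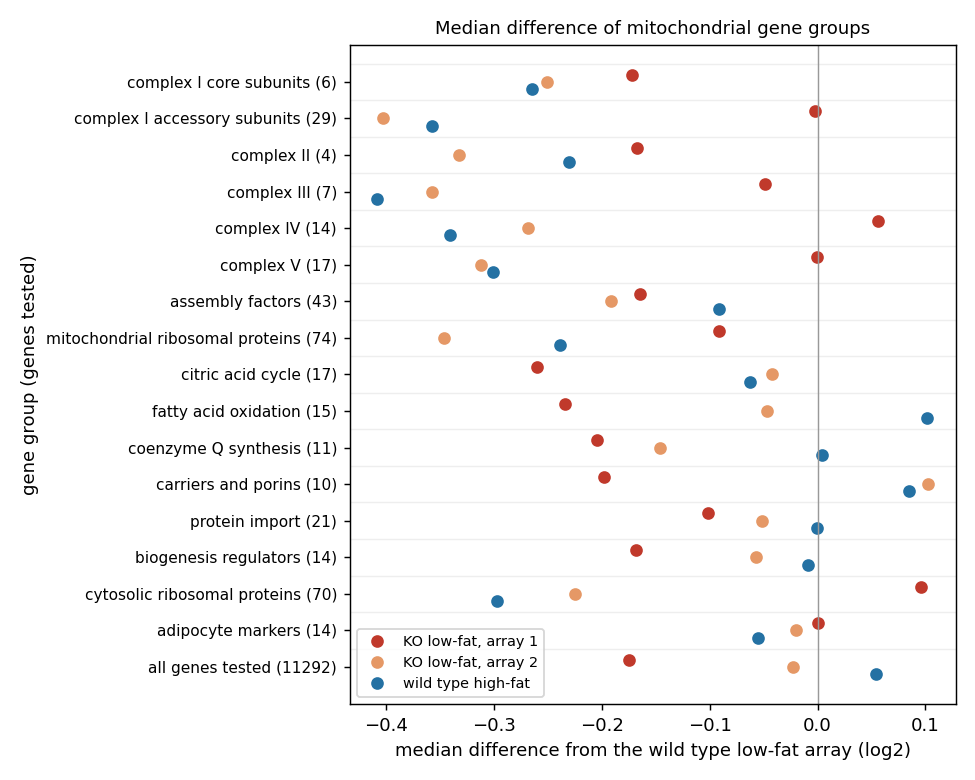
Median log2 difference from the WT_LF array for gene groups (number of genes tested in brackets), with 1 point each for KO array 1, KO array 2 and the WT_HF array. The respiratory complexes and both ribosome groups lie left of all genes tested (−0.02 and 0.05) on KO array 2 and the WT_HF array, and most of the other mitochondrial groups lie closer to 0.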

How the data were processed

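Epididymal adipose tissue was profiled on 4 gene arrays from 100 ng of pooled RNA each. The authors deposited 1 linear intensity per probe set and array, and per the submitters' processing notes RMA and R 2.15.0 were used. No source used here names a genome build. Tests planned for log2 values needed a log2 step first, with no rescaling. Of 35556 probe sets, the 21218 with 1 symbol in the platform annotation were used, and a gene was read from its probe set with the highest mean over the 4 arrays. The 11292 of 18820 genes with a mean log2 level of at least 5.45, the 40th percentile, were tested. KO against WT_LF used limma 3.58.1 in R 4.3.3, with 3 group means and two-sided tests adjusted by Benjamini-Hochberg at 0.05. The fit had 1 residual and 4.62 prior degrees of freedom (prior SD 0.28), so each single wild type array is taken to vary as the KO arrays do. Other comparisons were counted by size at 1.5-fold, and the diet contrast of the same fit was added later.

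The members and gene lists were chosen with earlier results of these data known. Named were all Sdh genes, families with tissue isoforms, and per complex the extremes of diet difference, of level, of shared KO difference and of the difference between KO arrays; other names were chosen after their values were seen. RefSeq tables of GRCm38.p6 gave names (80 of 80 matched) and promoters. The fit was tested on simulated data, and matplotlib 3.10.9 (Python 3.11.15) drew the figures. Alternatives covered the filter, array scaling, the probe set rule, the variance model, thresholds and each KO array left out. The unmapped value columns numbered 0.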

Additional observations from a re-analysis of the deposited data

How the results depend on the processing

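The 0 subunit genes called between KO and WT_LF by adjusted p stayed at 0 with every alternative run, also at a threshold of 0.1. The count of 0 at an unadjusted p of 0.05 is from the main limma fit. Over all genes the 5 calls became 0 with no filter, 1 with each array centred on its median, 3 with quantile normalization, 3 with the mean of all probe sets and 1 with both wild type arrays as 1 group. The 17 subunit genes lower on the WT_HF array became 43 at a threshold of 25% and 0 at 2-fold, and the 0 higher became 1 at 25%. The 17 lower on KO array 2 than on KO array 1 became 38 at 25% and 1 at 2-fold, and the 0 higher became 1 at 25%. The 0 lower on both KO arrays ranged from 0 without KO array 2 (5.02% of all genes) to 17 without KO array 1 (4.6% of all genes). The 0 higher on both became 1 at 25%. No share over all genes is given at 25% or 2-fold, so the counts at those thresholds cannot be set against all genes. The medians of the KO mean against WT_LF rest on KO array 2: without KO array 2 and without KO array 1 they were −0.00 and −0.36 for all 77 genes (−0.18 with both), −0.02 and −0.36 for complex I (−0.20), −0.17 and −0.33 for complex II (−0.27), −0.05 and −0.36 for complex III (−0.18), 0.06 and −0.27 for complex IV (−0.13), and −0.00 and −0.31 for complex V (−0.17). With both wild type arrays as 1 group, the KO difference turned sign for Atp5k (0.0193), Cox6b1 (0.0044), Uqcrb (0.0365) and Uqcrfs1 (0.0091). Counts not named here stayed within 1.5 times their value, and medians not named here within the spread between the KO arrays. No paired analysis was possible because replicate numbers are given for the KO arrays alone. Wild type arrays without replicates, RNA pools and faint probe sets near the filter limit the precision.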

Other observations

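Thermogenic genes passed the filter for 7 of 12, with diet differences from −0.69 to 2.21 and a median of 0.52. Of the 7, 2 were at least 1.5-fold higher on the WT_HF array, where 7.72% of all genes were, and 1 was lower, where 3.82% were. Pdk4 was at 11.35 and 11.92 on the KO arrays, 11.69 on the WT_HF array and 11.17 on the WT_LF array, and Cidea at 6.22 and 5.45 on the KO arrays, 6.05 on the WT_HF array and 6.74 on the WT_LF array. Coenzyme Q synthesis (11 genes) had a median diet difference of 0.00 and protein import (21 genes) of −0.00. Tomm7, a small part of the import pore, had the lowest diet difference of that group, at 9.70 and 9.23 on the KO arrays, 9.20 on the WT_HF array and 9.72 on the WT_LF array. Endothelial markers (10 genes) had a median of −0.04.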
